A study of Homo sapiens with 6 samples.

Results

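The Hippo pathway was examined in MDA-MB-231 cells, a human triple-negative breast cancer (TNBC) line, and in Adriamycin-resistant (ADRr) cells derived from it. The genes were chosen by name: the coactivators YAP1 and WWTR1 (TAZ), the transcription factors TEAD1, TEAD3 and TEAD4, the kinases LATS1 and LATS2, the YAP-binding protein AMOTL2, and the YAP targets CYR61 (CCN1) and CTGF (CCN2). All 10 were in the count table of 58735 genes and all 10 were among the 15242 genes tested. Adriamycin (ADR, doxorubicin) is an anthracycline that blocks topoisomerase II and damages DNA. The parent cells, labelled MB_parent, were compared with the ADRr cells, labelled MB_ADR12, with 3 libraries of polyadenylated RNA in each group. According to the study's methods, ADRr cells were selected in rising doses of ADR and then isolated as single clones, so a difference between the groups may belong to the resistant state or to the clone, and these cannot be told apart. The sources used here do not give the dose, if any, in which ADRr cells grew at harvest, nor whether the libraries of a group came from separate cultures. The p-values therefore measure the spread between these libraries, which may be technical.

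The Hippo pathway is a kinase cascade that restrains growth. MST kinases (STK3 and STK4) and MAP4K kinases activate LATS1 and LATS2, which phosphorylate YAP and TAZ and thereby keep them out of the nucleus or mark them for degradation. YAP and TAZ that escape this control enter the nucleus, bind TEAD factors and switch on genes such as CTGF, CYR61 and ANKRD1. The pathway is read out mostly through phosphorylation and location of proteins, and RNA measures neither.

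Total counts per library ranged from 15983985 to 18272314, so the limit set by a count of 0, taken as 3 counts, was 0.164 to 0.188 CPM, a count's share of its library. This limit and all others like it reflect counting error alone. TMM factors were 0.987 to 1.01, and normalized counts are on the scale of an average library. Levels of different genes are compared as FPKM, fragments scaled to gene length and library total. A gene was called higher or lower at an adjusted p of at most 0.05 (edgeR's quasi-likelihood test, Benjamini-Hochberg over all tested genes) and a fold change of at least 1.2, a log2 fold change of 0.263 in either direction. Log2 fold changes are ADRr against parent throughout. By this rule 58.8% of all tested genes were called, 29.2% higher and 29.6% lower in ADRr cells, and 66% passed the adjusted p alone. The groups did not overlap for 69.2% of tested genes, with all 3 libraries of one above those of the other. The median of the absolute log2 fold change over all tested genes was 0.46. Of the markers of this line, VIM, CD44, EGFR, FN1 and TGFBI were expressed in both groups with mean FPKM values of 13.9 to 146, and ESR1, PGR and FOXA1 had at most 3 counts in each library. GATA3 (524 normalized counts in parent and 449 in ADRr cells), CDH1 (252 and 120) and EPCAM (215 and 460) were not at 0. Of 6 leukocyte markers, 5 had at most 3 counts in each library. The remaining one, CD53, had 0 counts in the parent libraries and 4, 1 and 3 in the ADRr libraries. The summed level of all 6 was 0 to 0.112 CPM in parent and 0.0617 to 0.281 CPM in ADRr cells.

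The stretches of DNA below are shown because TEAD factors bind a short core, GGAATG or CATTCC on the other strand, and because the genes beside them did not move together. They are RefSeq promoter sequences (GRCh38.p14), read 5′ to 3′ along the gene, with the core in capitals. Positions count from the RefSeq start, with the last base before it as -1, and give the first base of the core. For CTGF the 249 bases upstream of its annotated first exon are given (minus strand of chr6:131951374-131951622), with cores at -169, -104 and -95. The others are 30 bases around each core.
CTGF: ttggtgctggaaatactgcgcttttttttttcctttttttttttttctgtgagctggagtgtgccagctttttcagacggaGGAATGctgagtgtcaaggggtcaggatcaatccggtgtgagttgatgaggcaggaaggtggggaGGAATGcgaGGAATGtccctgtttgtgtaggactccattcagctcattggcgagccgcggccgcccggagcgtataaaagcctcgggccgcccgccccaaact
AMOTL2, core at -69 of the second of its 2 starts: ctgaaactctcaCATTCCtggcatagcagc
YAP1, core at -162: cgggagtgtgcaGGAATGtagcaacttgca
ANKRD1, core at -220: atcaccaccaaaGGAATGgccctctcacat
ANKRD1, core at -128: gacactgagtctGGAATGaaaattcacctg
NUAK2, core at -197: tcccctagtcccCATTCCtggtgggcgggt
NUAK2, core at -18: ttataacaacttGGAATGctgtgctttact
FOXF2, core at -196: gaggccgcgagaGGAATGaagagcgaggag
TGFB2, core at -185: tgtcagggcgcaCATTCCacctccttcctc

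The stretches lie at chr3:134374499-134374528 for AMOTL2, chr11:102110273-102110302 for YAP1, chr10:90921290-90921319 and chr10:90921198-90921227 for ANKRD1, chr1:205321925-205321954 and chr1:205321746-205321775 for NUAK2, chr6:1389368-1389397 for FOXF2 and chr1:218345139-218345168 for TGFB2. YAP1, FOXF2 and TGFB2 are on the plus strand and the others on the minus strand. RefSeq and GENCODE 29 place some starts differently. Counted in bases from the outermost GENCODE 29 start, the RefSeq start of TGFB2 lies at -899, which is upstream. The printed AMOTL2 start lies at 1032, which is downstream. The TGFB2 core is thus further from the gene as counted than its position of -185 shows. The cores of AMOTL2, of ANKRD1 at -128 and of NUAK2 at -18 fall inside an exon of GENCODE 29. Promoter windows of 300 bases, from 250 before to 50 after a start, were searched on both strands. Of the members, 7 matched by symbol, with 10 starts, and CYR61, TEAD1 and TEAD4 were not matched. A core stood in 4 of the 10 windows (40%), those of CTGF, YAP1, LATS2 and one start of AMOTL2. Among all 35116 such windows 4928 (14.0%) held a core, and 45 (0.128%) held at least 3, as that of CTGF did. A match of letters is a description and not a measured binding site.

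YAP1 and WWTR1, the paralogous coactivators, both rose in ADRr cells, by 1.34-fold and 1.24-fold. In RNA from bulk cells, more cells expressing a gene and more RNA per cell cannot be told apart. YAP1 (ENSG00000137693, chromosome 11, 102110461 to 102233423) had 3955, 4121 and 3719 normalized counts in the parent libraries and 5402, 5258 and 5140 in the ADRr libraries. The groups did not overlap, and the lowest ADRr library stood well above the highest parent library. Its log2 fold change was 0.42 (standard error 0.051, 95% interval 0.32 to 0.53, adjusted p = 1.9e-07 from edgeR). WWTR1 (ENSG00000018408, chromosome 3, 149517235 to 149736714) had 765, 760 and 738 normalized counts in parent and 974, 867 and 963 in ADRr cells. All ADRr libraries were again above all parent libraries, with ADRr replicate 2 the nearest to them. Its log2 fold change was 0.31 (standard error 0.071, 95% interval 0.16 to 0.46, adjusted p = 5.4e-04 from edgeR). Both changes were smaller than the median absolute change of all tested genes.

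YAP1 was by far the more abundant of the pair per length of RNA. Its level was 35.8 FPKM in parent and 48.0 FPKM in ADRr cells, against 5.13 and 6.38 FPKM for WWTR1. The ratio of YAP1 to WWTR1 in FPKM was 6.91, 7.24 and 6.73 in the parent libraries and 7.41, 8.10 and 7.13 in the ADRr libraries. These ranges overlapped, and the difference in the log2 ratio was 0.11 (exact two-sided permutation test, p = 0.2, Benjamini-Hochberg adjusted p = 0.4 over 12 such comparisons). With 3 libraries against 3 this test cannot go below 0.1. The sum of both coactivators was 40.9 ± 1.97 FPKM in parent and 54.4 ± 1.32 FPKM in ADRr cells (SD, n = 3), with no overlap (exact permutation p = 0.1, adjusted p = 0.3).

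**Figure D1:**
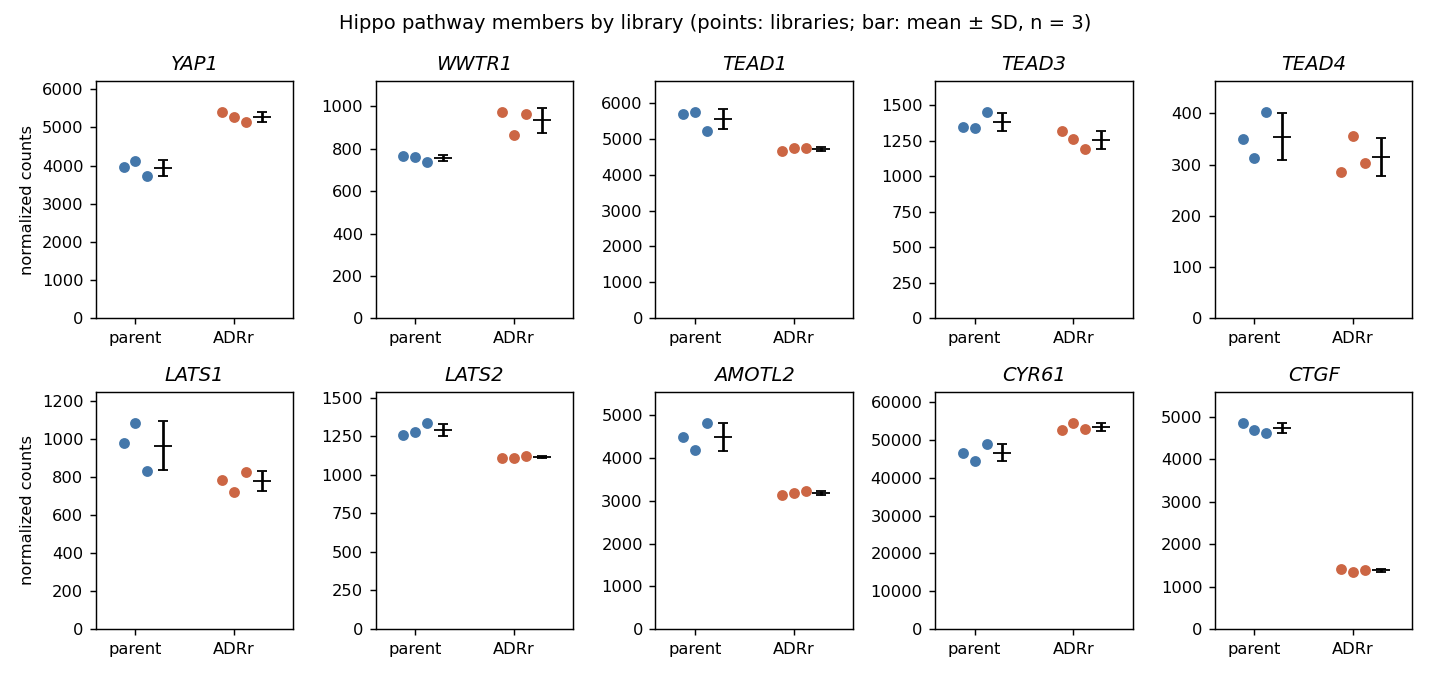
Normalized counts (vertical axes, from 0, a different scale for each gene) of the 10 members in the 3 parent and 3 ADRr libraries; points are libraries and the bars beside them the mean ± SD. YAP1, WWTR1 and CYR61 are higher in every ADRr library, TEAD4 is the one gene whose groups overlap, and CTGF has the widest gap as a fold, from a mean of 4734 to one of 1388.

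The TEAD factors, which give YAP and TAZ their DNA binding, were not called in either direction, and TEAD1 alone passed the adjusted p. TEAD1 (ENSG00000187079, chromosome 11, 12674591 to 12944483) had 5685, 5751 and 5229 normalized counts in parent and 4659, 4747 and 4752 in ADRr cells. The groups did not overlap, and parent replicate 3 was the nearest to the ADRr libraries. Its log2 fold change of -0.24 (standard error 0.050, 95% interval -0.34 to -0.13, adjusted p = 2.8e-04 from edgeR) passed the adjusted p but stayed under the fold of 1.2. Without parent replicate 3 TEAD1 was called lower (-0.28, adjusted p = 2.7e-06 from edgeR), and over all alternatives its adjusted p was between 2.7e-06 and 0.010.

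TEAD3 (ENSG00000007866, chromosome 6, 35473597 to 35497076) had 1348, 1341 and 1453 normalized counts in parent and 1320, 1262 and 1194 in ADRr cells. The groups were close but did not overlap. The log2 fold change was -0.13 (95% interval -0.26 to -0.0031, adjusted p = 0.066 from edgeR), which did not pass. TEAD4 (ENSG00000197905, chromosome 12, 2959330 to 3040673) had 349, 312 and 403 normalized counts in parent and 286, 356 and 302 in ADRr cells, the lowest counts of the members. On normalized counts it was the one member whose groups overlapped, with ADRr replicate 2 above both parent replicates 1 and 2. Its log2 fold change of -0.18 (95% interval -0.40 to 0.051, adjusted p = 0.16 from edgeR) was not called, although without parent replicate 2 it was -0.27 (adjusted p = 0.031, range over all alternatives 0.031 to 0.56). TEAD2, the remaining family member, had 425, 360 and 405 normalized counts in parent and 364, 328 and 343 in ADRr cells (log2 fold change -0.20, adjusted p = 0.067 from edgeR).

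Within the family the proportions were nearly the same in both groups. TEAD1 held 42.2 ± 2.72% of the summed TEAD FPKM in parent and 40.8 ± 1.04% in ADRr cells (SD, n = 3), followed by TEAD3 with 35.3 ± 1.27% and 36.7 ± 1.37%. TEAD4 held 12.2 ± 1.38% and 12.3 ± 1.33%, and TEAD2 10.4 ± 0.729% and 10.3 ± 0.584%. The ratio of TEAD1 to TEAD4 in FPKM was 3.48 in parent and 3.33 in ADRr cells as geometric means, a difference of -0.063 in log2 (exact permutation p = 0.8, adjusted p = 0.87). The summed TEAD level was 73.4 ± 1.29 FPKM in parent and 64.7 ± 1.07 FPKM in ADRr cells, with no overlap between the groups (exact permutation p = 0.1, adjusted p = 0.3). The coactivator sum therefore lay higher and the TEAD sum lower in every ADRr library than in any parent library.

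**Figure D2:**
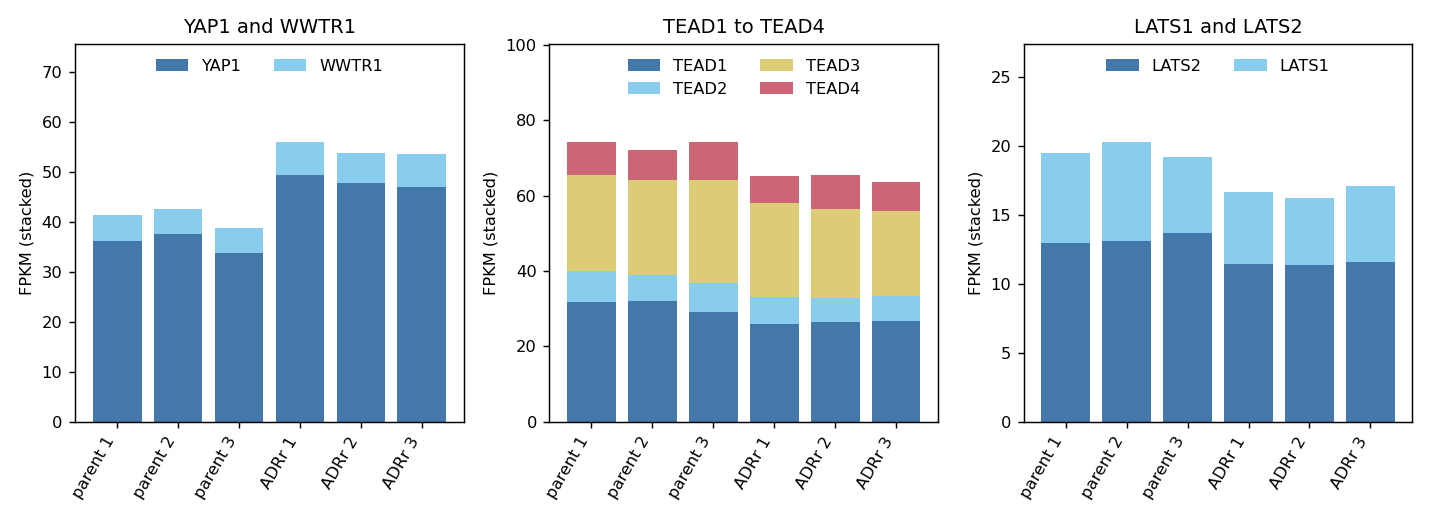
FPKM (vertical axes, from 0) stacked for YAP1 and WWTR1, for TEAD1 to TEAD4 and for LATS1 and LATS2, one bar per library. The coactivator stacks average 40.9 FPKM in parent and 54.4 in ADRr cells, the TEAD stacks 73.4 and 64.7, and the LATS stacks 19.6 and 16.6.

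LATS1 and LATS2, the kinases that phosphorylate YAP and TAZ, both lay lower in ADRr cells, and LATS1 passed both parts of the call. LATS1 (ENSG00000131023, chromosome 6, 149658153 to 149718256) had 978, 1088 and 832 normalized counts in parent and 784, 724 and 828 in ADRr cells. The groups were separated by only a few counts, between parent replicate 3 and ADRr replicate 3. In FPKM these libraries stood in the reverse order, at 5.49 and 5.52, so there the groups overlapped. Its log2 fold change was -0.31 (standard error 0.085, 95% interval -0.48 to -0.13, adjusted p = 0.0030 from edgeR). The call was lost without parent replicate 2 (-0.22, adjusted p = 0.013) and without ADRr replicate 2 (-0.25, adjusted p = 0.028), both under the fold of 1.2, and over all alternatives the adjusted p ran from 7.9e-06 to 0.11.

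LATS2 (ENSG00000150457, chromosome 13, 20973032 to 21061547), itself a known YAP target, had 1259, 1275 and 1337 normalized counts in parent and 1109, 1109 and 1121 in ADRr cells. The ADRr libraries were almost equal and all below the parent libraries. The log2 fold change was -0.21 (standard error 0.061, 95% interval -0.34 to -0.087, adjusted p = 0.0039 from edgeR), under the fold of 1.2 and not called. LATS2 was the more abundant kinase, with 13.2 FPKM in parent and 11.5 in ADRr cells against 6.40 and 5.18 FPKM for LATS1. The ratio of LATS2 to LATS1 in FPKM was 2.08 and 2.22 as geometric means, a difference of 0.091 in log2 (exact permutation p = 0.5, adjusted p = 0.67). Their sum was 19.6 ± 0.566 FPKM in parent and 16.6 ± 0.455 FPKM in ADRr cells.

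AMOTL2, an angiomotin that binds YAP at cell junctions and is itself induced by YAP, fell in ADRr cells. AMOTL2 (ENSG00000114019, chromosome 3, 134355874 to 134375479) had 4491, 4185 and 4832 normalized counts in parent and 3140, 3176 and 3230 in ADRr cells. All ADRr libraries were well below the parent libraries and closer to each other than the parent libraries were. The log2 fold change was -0.50 (standard error 0.055, 95% interval -0.62 to -0.39, adjusted p = 3.8e-08 from edgeR). AMOTL1, a related angiomotin chosen after its values were seen, fell by 0.80 on the log2 scale. AMOT, with a mean of 3.44 normalized counts in parent cells and 0 counts in ADRr cells, was not tested.

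CTGF and CYR61, secreted matricellular proteins and the targets most often used to read YAP activity, did not move together. CTGF (ENSG00000118523, chromosome 6, 131948176 to 131951373) had 4867, 4704 and 4631 normalized counts in parent and 1422, 1348 and 1394 in ADRr cells. Every ADRr library was far below every parent library, with little spread within either group. The level was 3.41-fold lower in ADRr cells, or -1.77 on the log2 scale (standard error 0.053, 95% interval -1.88 to -1.66, adjusted p = 7.0e-18 from edgeR), larger in size than the change of 94.1% of tested genes. CYR61 (ENSG00000142871, chromosome 1, 85580761 to 85583962) had 46608, 44565 and 48908 normalized counts in parent and 52778, 54641 and 52836 in ADRr cells. All ADRr libraries were above all parent libraries. Its log2 fold change of 0.19 (standard error 0.043, 95% interval 0.11 to 0.28, adjusted p = 3.9e-04 from edgeR) passed the adjusted p but not the fold of 1.2, and over the alternatives the adjusted p ran from 1.0e-05 to 0.18. In parent cells CYR61, at 1089 FPKM, was above 99.8% of tested genes.

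The ratio of CTGF to CYR61 in FPKM was 0.110, 0.111 and 0.0994 in the parent libraries and 0.0283, 0.0259 and 0.0277 in the ADRr libraries. The groups did not overlap, and the log2 ratio differed by -1.97 (exact two-sided permutation test, p = 0.1, the smallest possible, adjusted p = 0.3). This is the one of the 4 ratios of related members whose groups were apart. In order of FPKM the members ran CYR61, CTGF, AMOTL2, YAP1, TEAD1, TEAD3, LATS2, TEAD4, LATS1 and WWTR1 in parent cells. In ADRr cells YAP1 (48.0 FPKM) stood above CTGF (34.1 FPKM) and AMOTL2 (30.5 FPKM), and WWTR1 above LATS1. In both groups the ranges of neighbours in this order were separate.

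**Figure D3:**
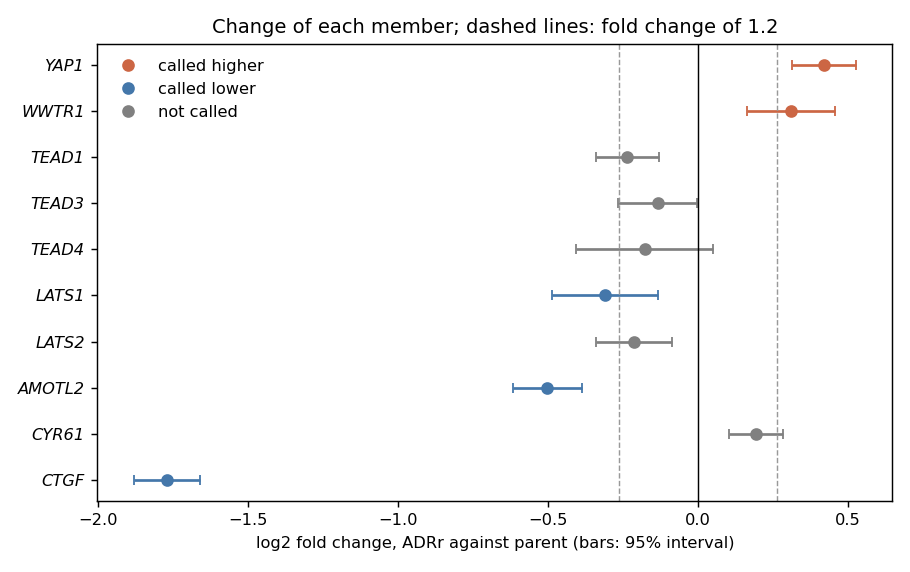
Log2 fold change of each member, ADRr against parent (horizontal axis), with its 95% interval; dashed lines mark a fold change of 1.2. CTGF lies far to the left at -1.77, and the other 9 members lie between -0.50 and 0.42.

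Of the 10 members, 2 were called higher (YAP1 and WWTR1), 3 lower (LATS1, AMOTL2 and CTGF) and 5 were not called, a share of 50% against 58.8% of all tested genes. The adjusted p alone was passed by 8, and in 9 the groups did not overlap on normalized counts, where 66% and 69.2% of all tested genes met these marks. The median log2 fold change of the members was -0.20, and that of all tested genes -0.0061. The sources used here do not say whether strand was used, so reads from overlapping genes cannot be told apart. Of 14 genes that overlap a member, 13 had under 10 counts in each library. The remaining one, WWTR1-AS1, had at most 19 counts, against a mean of 754 normalized counts for WWTR1 in parent cells.

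The other kinases of the cascade, listed with its adaptors and degradation steps, moved in both directions. Of 20 genes, 19 were tested (MAP4K1 was not), 7 were called higher and 5 lower, with a median log2 fold change of 0.057. This was 63.2% called, against 58.8% of all tested genes. MAP4K4, a kinase that can activate LATS beside the MST kinases, had 4210, 4465 and 4318 normalized counts in parent and 9100, 8738 and 8598 in ADRr cells, about a doubling (log2 fold change 1.02). TNIK (0.89), of the same family, and TAOK3 (0.70), of the TAO kinases that act on MST, also rose. TAOK2 (-0.79), MAP4K2 (-0.76) and MINK1 (-0.55) fell. The MST kinases, chosen after their values were seen, were divided: STK4 (MST1) rose by 0.62 and STK3 (MST2) changed by -0.44.

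Among 23 upstream regulators, 21 were tested, 2 were called higher and 9 lower, and the median was -0.16. This was 52.4% called, against 58.8% of all tested genes, of which 29.2% were higher and 29.6% lower. FAT1, a giant protocadherin that feeds into the cascade, had 7660, 7323 and 6888 normalized counts in parent and 1202, 1175 and 1178 in ADRr cells. This was a 6.15-fold lower level (log2 fold change -2.62, adjusted p = 1.9e-20 from edgeR). FAT4, a related protocadherin, changed by -1.29. WWC1 (KIBRA), a scaffold that activates LATS, fell from 5526 ± 303 to 2391 ± 56.2 normalized counts (-1.21 on the log2 scale). Its paralogs parted, with WWC2 (chosen after its values were seen) at -0.83 and WWC3 at 0.44. RASSF2, which binds MST kinases, rose from 25.8 to 68.9 normalized counts (1.40, but between 0.43 and 1.61 over the alternatives). MPP5 (PALS1), a polarity protein also chosen after its values were seen, changed by -1.05. NF2 (merlin), which brings LATS to the membrane and carries a known inactivating mutation in this line, had 251 ± 6.21 and 238 ± 7.33 normalized counts (log2 fold change -0.079, 95% interval -0.29 to 0.14, adjusted p = 0.52 from edgeR).

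The STRIPAK complex, a phosphatase assembly that removes the activating phosphate from MST kinases, had all 14 of its genes tested, with 4 called higher, 3 lower (50% called) and a median of 0.13. STRIP2 (2.29-fold, from 792 to 1815 normalized counts), STRN (log2 fold change 0.73) and CTTNBP2NL (0.63) had its 3 largest increases, and SLMAP (-0.72), PPP2R1A (-0.63) and SIKE1 (-0.34) its decreases. Of 5 TEAD partners and relatives, VGLL1 and VGLL2 were at 0 counts in all libraries. VGLL3, a cofactor that binds TEAD through the surface that YAP uses, rose from 483 ± 29.1 to 810 ± 15.8 normalized counts (0.75), while VGLL4, a TEAD-binding antagonist of YAP, changed by -0.33. Over these 4 lists together, 57 of 62 genes were tested, 14 were called higher and 18 lower, 56.1% in all against 58.8% of all tested genes.

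A signature of 18 further genes that YAP and TAZ are known to induce moved in both directions. Of the 18, all were tested, 4 were called higher, 6 lower and 8 neither, with a median of -0.15. PTPN14, one of the 8, also stands among the upstream regulators. This was 55.6% called, against 58.8% of all tested genes. ANKRD1, a muscle and stress repressor and a standard YAP readout, had 12122, 13165 and 11781 normalized counts in parent and 11937, 11994 and 12878 in ADRr cells. The groups overlapped, and its log2 fold change was -0.010 (95% interval -0.11 to 0.094, adjusted p = 0.87 from edgeR). The interval holds no change as large as the fold of 1.2. GADD45A, a stress-induced growth arrest gene, rose from 1514 ± 92.1 to 3541 ± 73.3 normalized counts (1.22), and IGFBP3 (0.67) and NUAK2 (0.36) rose less.

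FOXF2, a forkhead transcription factor, had 300, 295 and 316 normalized counts in parent and 82.7, 76.3 and 81.1 in ADRr cells (log2 fold change -1.92). TGFB2, a TGF-beta ligand, had 5093, 5417 and 4821 normalized counts in parent and 1350, 1362 and 1426 in ADRr cells (-1.89). RBMS3, an RNA-binding protein, changed by -1.57 from 306 normalized counts (between -1.66 and -0.56 over the alternatives). All ADRr libraries lay far below the parent libraries for FOXF2 and TGFB2, as for CTGF. Of the genes whose TEAD cores are printed, CTGF, AMOTL2, FOXF2 and TGFB2 thus fell, YAP1 and NUAK2 rose and ANKRD1 was not called. A core also stood in the windows of AXL, which fell (-0.62), and of LATS2 and PTPN14, which were not called. Over all 10 genes found with a core, 5 were called lower, 2 higher and 3 were not called. Of all tested genes, 29.6% were called lower and 29.2% higher, 58.8% in all. Whether genes with a core differ from others was not tested. In the signature 13 of 18 genes had a window that was searched, and 6 of them held a core. Counted by start, as the windows are, this was 42.9% of 14 starts, against 14.0% of all windows. Windows on chromosome 8 were left out for the lists but kept among all windows. ASAP1 and DOCK5 lie on chromosome 8, so they were not searched.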

How the data were processed

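MDA-MB-231 parent and ADRr cells were sequenced in 3 libraries each. The study's methods describe CORALL libraries of polyadenylated RNA, read as paired ends on a NovaSeq. The sample records describe another kit. HISAT2 placed the reads and featureCounts counted them by gene. The submitters' processing notes name HISAT2 2.0.5, featureCounts 1.5.0-p3, DESeq2 1.20.0 and fastp. Use of strand is not given in the sources used here. The authors deposited raw counts by gene, not normalized. They also deposited FPKM, made from these counts. All 58735 gene identifiers are in GENCODE 29 on GRCh38. The coordinates of 58690 genes, with all 10 members among them, were the same there. The series record mentions 3 time points that the labels do not name, so the 3 libraries of each group served as replicates. No batch is named.

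Counts were filtered with filterByExpr, normalized with TMM and tested with edgeR 4.0.16 (glmQLFit and glmQLFTest, R 4.3.3) over all 15242 kept genes with Benjamini-Hochberg adjustment. The standard error is the log2 fold change divided by the square root of F. Fold and adjusted p thresholds follow the study's methods. Ratios and sums of FPKM were compared by exact two-sided permutation tests. The edgeR, DESeq2 and limma fits were tried on simulated counts, and the permutation tests were not. In the simulation a far smaller share of genes changed than was called here, and the dispersion was fixed. The members and gene lists were chosen with earlier results of these data known, and no value here is independent support for them. Genes named were the members, TEAD2, NF2, ANKRD1 and VGLL3. In each list, the 3 called genes with the largest increases and the 3 with the largest decreases were named too. AXL and PTPN14 were named because their windows hold a core, and ASAP1 and DOCK5 for their chromosome. Cell markers and genes not tested were also named. Others are marked as chosen after their values were seen. Alternatives were DESeq2 size factors or library size alone, DESeq2 1.42.0, a minimum of 10 counts in every library, no filter, a replicate block, an absolute log2 fold change of 1.2, the adjusted p alone, limma 3.58.1 on log2(FPKM + 1) or log2(FPKM + 0.1) with a mean FPKM of at least 0.5, the former without filter, and each library left out.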

Additional observations from a re-analysis of the deposited data

How the results depend on the processing

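The log2 fold change of each of the 10 members kept its sign under every alternative run. An absolute log2 fold change of 1.2, another reading of the study's threshold, left 0 members higher and 1 lower (CTGF). YAP1 (0.42), WWTR1 (0.31), LATS1 (-0.31) and AMOTL2 (-0.50) were then not called. It left 0 kinase cascade genes higher and 0 lower, 1 upstream regulator higher and 3 lower, 0 STRIPAK genes higher and 0 lower, 0 TEAD cofactors higher and 0 lower, and 1 target of the signature higher and 4 lower. Over all 15242 tested genes it left 1114 higher and 972 lower. By the adjusted p alone, 5 members were lower, and TEAD1 (-0.24), LATS2 (-0.21) and CYR61 (0.19) passed. Of all tested genes 66% passed it. Both limma fits with the filter called 1 upstream regulator higher. RASSF2 averaged 0.256 FPKM in parent and 0.687 FPKM in ADRr cells. Its mean was under the filter of 0.5, so these 2 fits did not test it. Limma on log2(FPKM + 1) without the filter called 2 upstream regulators higher. With limma on log2(FPKM + 1), with or without the filter, 0 TEAD cofactors were lower and LATS1 was at -0.26 (adjusted p = 0.048 and 0.11) and not called. Why these TEAD cofactor and LATS1 calls were lost was not tested. With 1 library left out, the members called lower numbered 2 to 4, and the TEAD cofactors called lower 1 to 2 (2 without parent replicate 2). Over all genes tested in these fits, 4375 to 4610 were called lower. The log2 fold change lay between -0.41 and -0.22 for LATS1, -0.28 and -0.22 for TEAD1 and -0.27 and -0.078 for TEAD4. No call of the other 7 members changed. The difference between groups in the log2 ratio lay between -2.01 and -1.93 for CTGF to CYR61 and between 0.063 and 0.155 for YAP1 to WWTR1. It changed sign for LATS2 to LATS1 (-0.0074 without parent replicate 2, up to 0.221) and for TEAD1 to TEAD4 (0.051 without parent replicate 2 and 0.025 without ADRr replicate 2, down to -0.202). Replicate numbers did not pair the libraries: deviations from the group means of same-numbered libraries correlated at 0.0074, -0.021 and -0.046. With the replicate number as a block, 2 members were higher and 3 lower, and no call of a member or named gene changed. TEAD4 and TEAD2 had the fewest counts of the TEAD genes, and 3 libraries a group limit the tests of ratios, whose p cannot go below 0.1.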
